A study of Arabidopsis thaliana with 2 samples.

Results

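Transcript levels of 10 bZIP transcription factor genes were read from 2 Affymetrix arrays of Arabidopsis thaliana seedlings that carry a synthetic oxygen sensor. The genes were BZIP17, BZIP28, BZIP60, BZIP53, bZIP44, BZIP61, BZIP34, bZIP52, BZIP24 and bZIP19. They were taken as the probe sets, the array's unit of measurement for 1 transcript, that the platform annotation assigns to 1 of these genes alone. Each of the 10 had 1 such probe set, so no choice between probe sets arose, and they are 10 of 13286 loci named by a single gene on the array. The triple expressor array held RNA of Col-0 seedlings with AD-HIFCOOD, GBD-pVHL and PHD3, and the double expressor array held RNA of Col-0 seedlings with AD-HIFCOOD and GBD-pVHL but no PHD3. In animals PHD3 uses oxygen to hydroxylate the transcription factor HIF, and pVHL recognises HIF in its hydroxylated form. All seedlings had grown for 7 days on medium with 1% sucrose, were genotyped one by one and received no treatment. No source used here gives the promoters of the transgenes, the number of independent lines or the number of seedlings pooled, and no array of seedlings without the transgenes was analysed here.

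The comparison asks how the levels of these transcripts change when PHD3 is added to the sensor. Each genotype was measured on a single array, so no spread between replicates can be given, nothing was tested, and precision is limited by the number of arrays. The 10 genes were chosen with values of these arrays in view, so their differences are a description. In whole seedlings, fewer cells of a type and less RNA per cell cannot be told apart.

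bZIP factors bind DNA as pairs through a basic region followed by a leucine zipper, and which partners meet decides which promoters are bound. BZIP17, BZIP28 and BZIP60 are made as membrane-anchored proteins of the endoplasmic reticulum (ER). When unfolded proteins accumulate, BZIP17 and BZIP28 move to the Golgi and are cut free by the proteases S1P and S2P, whereas the BZIP60 messenger RNA is spliced by IRE1 so that the protein loses its anchor. BZIP53 and bZIP44 belong to group S1, whose members pair with group C factors, act with the energy sensor kinase SnRK1 when sugar runs short and are repressed in translation by sucrose through a conserved upstream reading frame. Much of the control of these factors therefore acts after transcription, and a probe set reports the transcript level only.

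The 3 membrane-bound factors differed little between the arrays. BZIP17, which acts in salt and ER stress, had a log2 value of 7.58 in the triple expressor and 7.42 in the double expressor, a difference of 0.15 or 1.11-fold. BZIP28, a main activator of ER chaperone genes, had 7.93 in the triple expressor and 7.86 in the double expressor, a difference of 0.067 or 1.05-fold. BZIP60, the target of IRE1, had 8.04 in the triple expressor and 8.04 in the double expressor, and its difference was 0.00061. The order of the differences was BZIP17, BZIP28 and BZIP60, and the gap between the first and the last of them was 0.15 on the log2 scale. That gap is smaller than 0.17, the SD of the difference of a single probe set on these arrays. It was derived from how far different probe sets of the same locus disagreed (59 loci with both probe sets above the floor described next). A gap between genes holds the spread of both their probe sets, which is larger than this SD. This SD holds no variation between plants, RNA samples or labellings.

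**Figure D1:**
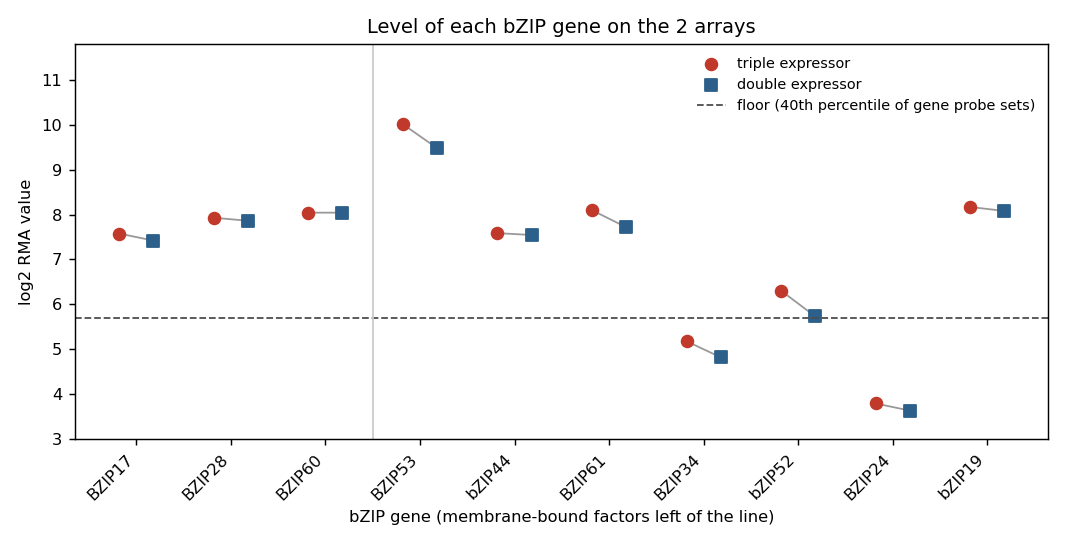
Log2 RMA value of each bZIP gene in the triple expressor (red circles) and the double expressor (blue squares), 1 array each; the dashed line is the floor at 5.71. The levels of BZIP60 coincide, those of bZIP52 and BZIP53 are farthest apart, and BZIP34 and BZIP24 lie under the floor on both arrays. Heights are not comparable between genes.

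A floor was set at the 40th percentile of all gene probe set values, a log2 value of 5.71, and a gene counted as above it when its brighter array reached it. Of the 10 genes 8 were above the floor, and BZIP34 and BZIP24 were below it on both arrays. None of the 10 was 1.5-fold or more apart between the arrays. Over all 13905 gene probe sets above the floor, 2.08% were at least 1.5-fold apart, 1.53% in the higher and 0.547% in the lower direction. These are 213 probe sets higher and 76 lower, or 162 higher and 97 lower when each array is centred on its median. At a difference of at least 0.32 on the log2 scale, 3 of the 8 genes above the floor (bZIP52, BZIP53 and BZIP61) were higher in the triple expressor and 0 lower, where 8.24% of all probe sets above the floor were higher and 4.79% lower. Nothing is read from that share, because the genes were chosen on this contrast.

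The 2 group S1 genes had unlike differences. BZIP53, a factor of seed maturation and of amino acid breakdown in starved tissue, had a log2 value of 10.01 in the triple expressor and 9.48 in the double expressor. This is a difference of 0.53 or 1.44-fold. Of the 1000 gene probe sets closest to BZIP53 in mean level, 2.0% had a difference at least as high, and the central 95% of them ran from -0.34 to 0.49. bZIP44, a relative with a role in seed germination, had 7.59 in the triple expressor and 7.55 in the double expressor, a difference of 0.042 or 1.03-fold. The difference of BZIP53 was thus 0.49 larger than that of bZIP44 on the log2 scale, in a single pair of arrays. With 32 added to the unlogged values, a scale that damps dim signals, BZIP53 was still 1.43-fold higher.

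The 2 group E genes had nearly the same difference on the deposited scale, but not on the damped one. BZIP61 had a log2 value of 8.10 in the triple expressor and 7.72 in the double expressor, a difference of 0.38 or 1.30-fold. Among the 1000 probe sets of like level 4.8% had a difference at least as high. BZIP34, which in Arabidopsis acts in pollen wall patterning and lipid metabolism, had 5.18 in the triple expressor and 4.82 in the double expressor, a difference of 0.36 or 1.28-fold. It lay below the floor, and 10.5% of probe sets of like level had a difference at least as high. The differences of BZIP61 and BZIP34 were 0.021 apart. On the damped scale they were 0.33 for BZIP61 and 0.18 for BZIP34, which is 0.15 apart. Both probe sets have names without a mark for cross-hybridisation, and whether they read each other's transcript was not tested.

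bZIP52 had the largest difference of the 10. It had a log2 value of 6.30 in the triple expressor and 5.73 in the double expressor, a difference of 0.57 or 1.49-fold, which is just short of 1.5-fold. Its double expressor value lies just above the floor, and of the probe sets of like level 3.8% had a difference at least as high, with a central 95% from -0.46 to 0.62. The difference of bZIP52 lay inside that range, and that of BZIP53, at 0.53, lay just past the upper end of its own, at 0.49. Such a range is a spread over other genes on 1 pair of arrays. Nothing is read from a place inside or outside it, because the genes were chosen on this contrast. On the damped scale bZIP52 was 1.30-fold higher, below the 1.43-fold of BZIP53, so the order of these genes turns with the scale.

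The 2 group F genes, which are linked to ion balance, differed little. bZIP19, a sensor of zinc supply that switches on zinc transporter genes, had a log2 value of 8.17 in the triple expressor and 8.08 in the double expressor, a difference of 0.088 or 1.06-fold. BZIP24, a negative regulator of salt acclimation, had 3.79 in the triple expressor and 3.63 in the double expressor, far below the floor on both arrays. Its difference of 0.16 lay well within the central 95% of probe sets of like level, from -0.47 to 0.37.

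**Figure D2:**
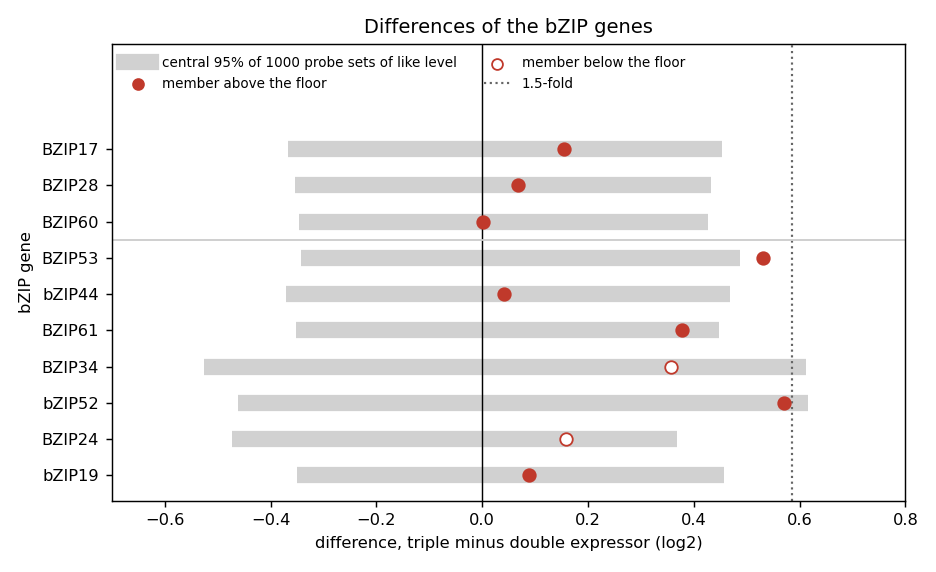
Difference of each bZIP gene, triple minus double expressor, on the log2 scale, with the 3 membrane-bound factors at the top; grey bars span the central 95% of the 1000 gene probe sets closest in mean level, open circles are genes below the floor and the dotted line marks 1.5-fold. BZIP53, at 0.53, is the only gene beyond its grey bar, which ends at 0.49, and BZIP60 sits at 0. The bars show a spread over other genes and are no test of genes chosen on these values.

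Set against the others, the membrane-bound factors had the smaller differences as a group. Their median was 0.067 on the log2 scale with a range of 0.00061 to 0.15, against a median of 0.36 with a range of 0.042 to 0.57 for the other 7 genes, a gap of -0.29 between the medians. The groups overlapped, since bZIP44 and bZIP19 lay inside the range of the membrane-bound factors. The median of the other 7 genes is the value of BZIP34, which lies below the floor on both arrays. Over the 5 of them above the floor the median was 0.38 and the gap -0.31. Without bZIP52 the median of the other genes was 0.26 and the gap -0.19, and on the damped scale the median was 0.18 and the gap -0.12. With 1 array per genotype, and members chosen on the same values, the gap was not tested.

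All 10 differences were above 0, as were 47.9% of those of all 13286 named loci, whose median was -0.0034. Nothing is read from the count of 10, because the genes were chosen on this contrast. Of the named loci above the floor, 52.9% had a difference above 0, with a median of 0.015. When each array was centred on its own median, or the differences on a lowess curve, 9 of 10 stayed above 0 and BZIP60 was at -0.033 and -0.018.

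Other bZIP genes were then read for comparison, from a list of 58 loci of which 15 had a named probe set and 43 were not analysed here. Of the 15, 11 had a difference above 0 and 4 below, with a median of 0.14, and 6 of the 15 lay above the floor, 5 of them higher and 1 lower. Over all named loci 47.9% had a difference above 0, and 52.9% of those above the floor. None of the 15 was 1.5-fold or more apart above the floor. The highest was EEL, a group A factor of late embryo development, at 4.76 in the triple expressor and 4.42 in the double expressor. The lowest was bZIP48, at 2.90 in the triple expressor and 3.10 in the double expressor. Both are below the floor.

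Of the relatives of bZIP52 in group I, 7 had a named probe set and 5 of these lay above the floor. bZIP18 had a difference of 0.29, at 6.98 in the triple expressor and 6.68 in the double expressor. bZIP69 had a difference of 0.23, PosF21 (AT2G31370) of 0.18, and bZIP29, which acts in cell division and osmotic stress, of 0.14. bZIP30, at 7.75 in the triple expressor and 7.78 in the double expressor, was the one relative with a difference below 0, at -0.032. The dim relatives bZIP31 and bZIP33 had differences of 0.10 and 0.012. The difference of 0.57 of bZIP52 was thus the highest in its group, but bZIP52 was chosen with these values in view. Of its 7 relatives 6 had a difference above 0, with a median of 0.14, against 47.9% of all named loci. Above the floor it was 4 of 5 relatives, against 52.9% of named loci.

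**Figure D3:**
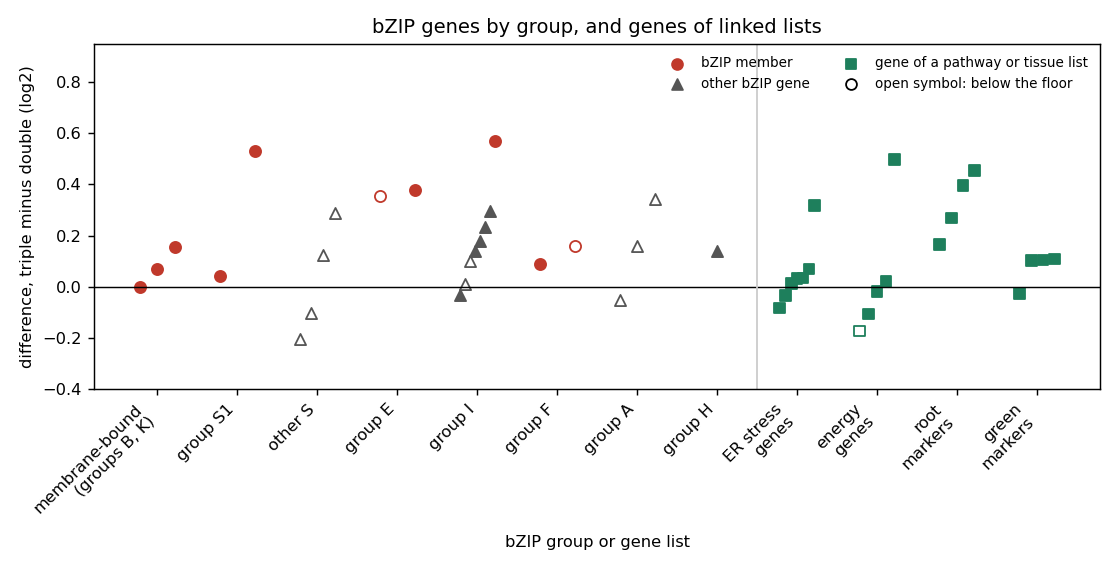
Differences (triple minus double expressor, log2) of the 10 bZIP genes (red circles) and 15 other bZIP genes (grey triangles) by bZIP group, and of genes of linked lists (green squares); open symbols lie below the floor on both arrays. The 3 membrane-bound factors run from 0.00061 to 0.15, and the ER stress genes from -0.083 to 0.32, the value of DER2.1. The group I genes run from -0.032 to 0.57, and all 4 root markers lie above 0.

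Among the genes on which the membrane-bound factors act, and the machinery that activates them, the few that could be read mostly showed small differences. Of 32 ER stress genes 7 had a named probe set, all above the floor. In the triple expressor 5 were higher and 2 lower, 0 were 1.5-fold or more apart, and the median was 0.031. The largest difference was that of DER2.1, a derlin of the pathway that removes misfolded proteins from the ER, at 8.18 in the triple expressor and 7.87 in the double expressor, a difference of 0.32. The ER chaperone gene CRT1b, a calreticulin, had 10.68 in the triple expressor and 10.76 in the double expressor, a difference of -0.083, and AT5G07340 a difference of 0.069. S1P, the protease that makes the first cut in BZIP17 and BZIP28, had 7.02 in the triple expressor and 6.98 in the double expressor. The remaining 25 genes of this list, the BIP genes, IRE1A and IRE1B among them, were not analysed here. How much BZIP60 transcript was spliced was not measured, since 1 probe set gives 1 value for the gene.

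Genes of energy signalling and sugar starvation went both ways. Of 22 on the list 5 had a named probe set, 2 higher and 3 lower in the triple expressor with a median of -0.019, and 0 were 1.5-fold or more apart above the floor. AKINBETA1, a regulatory subunit of SnRK1, had the largest difference, at 7.92 in the triple expressor and 7.42 in the double expressor, 1.41-fold. Among probe sets of like level 1.6% had a difference at least as high. IVD, an enzyme of leucine breakdown that is induced by starvation, had 7.12 in the triple expressor and 7.22 in the double expressor, a difference of -0.11. ATL8, a starvation-induced RING protein gene, was below the floor, at 4.32 in the triple expressor and 4.49 in the double expressor. AKINBETA1, the largest of the energy list, and BZIP53, the larger of the group S1 genes, had differences of 0.50 and 0.53. bZIP44, the other group S1 gene, was at 0.042, and the starvation genes lay near or below 0. A link between these values was not tested.

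The lists for the group F factors and for seed maturation were nearly empty. Of 10 zinc deficiency genes, ZIP9, a zinc transporter gene of the kind bZIP19 activates, was the only one named, at 3.95 in the triple expressor, below the floor on both arrays, with a difference of -0.056. Of 5 salt genes 0 had a named probe set. Of 8 seed maturation genes, the kind that BZIP53 activates in embryos, AT3G15670 alone was named, at 3.50 in the triple expressor and 3.57 in the double expressor, also below the floor.

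Tissue markers were read beside these results. All 4 root markers were higher in the triple expressor, with differences of 0.16 to 0.46, and their mean log2 value was 8.82 in the triple expressor and 8.50 in the double expressor. The log2 of their summed signal was 13.15 in the triple expressor and 12.98 in the double expressor. Of 4 green tissue markers 3 were higher and 1 lower, between -0.027 and 0.11, with a log2 summed signal of 14.66 in the triple expressor and 14.59 in the double expressor. The 2 seed markers, OLEO3 and PAP85, were below the floor on both arrays. The 4 root and 4 green markers lay above the floor, EXPA7 and EXPA18 closest to it, with EXPA7 at 6.20 in the triple expressor and 5.75 in the double expressor. The root markers EXPA7, at 0.46, and EXPA18, at 0.40, had differences of the size of those of BZIP61 and BZIP34. The differences of the brighter root markers PYK10, at 0.16, and AT3G01190, at 0.27, were smaller. The part of tissue composition in the bZIP differences was not tested.

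bZIP52 lies in the upper arm of chromosome 1, among the loci AT1G01 to AT1G12. In that stretch 5.06% of 356 named loci above the floor were at least 1.5-fold apart, 14 higher and 4 lower, against 1.84% of 7065 other named loci above the floor. The stretch was picked with values of these arrays in view, so its higher share is a description and was not tested. The SD of the differences was 0.31 in the stretch and 0.22 elsewhere. The 10 named loci closest to bZIP52 in gene order, 5 on each side, had differences from -0.43 to 0.22 with a median of -0.16, and 8 of them were lower in the triple expressor. No neighbour was as high as bZIP52. Of the genes on the lists, bZIP69 (0.23), the root marker EXPA7 (0.46), CRT1b (-0.083) and the energy list gene MCCA (0.020) lie in the same stretch.

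The neighbours of the other genes were read in the same way. For BZIP53, BZIP61 and BZIP34 too, none of the 10 nearest named loci had a difference as high as the bZIP gene itself, and the highest neighbours were at 0.30, 0.14 and 0.27. Of these neighbours 4, 4 and 5 lay above the floor. With bZIP52 these genes have the largest differences of the members, which were chosen on these values, so nothing is read from their rank among neighbours. For BZIP28, 5 of 10 neighbours were at least as high, with a highest value of 0.58, and for BZIP17 it was 3 of 10.

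**Figure D4:**
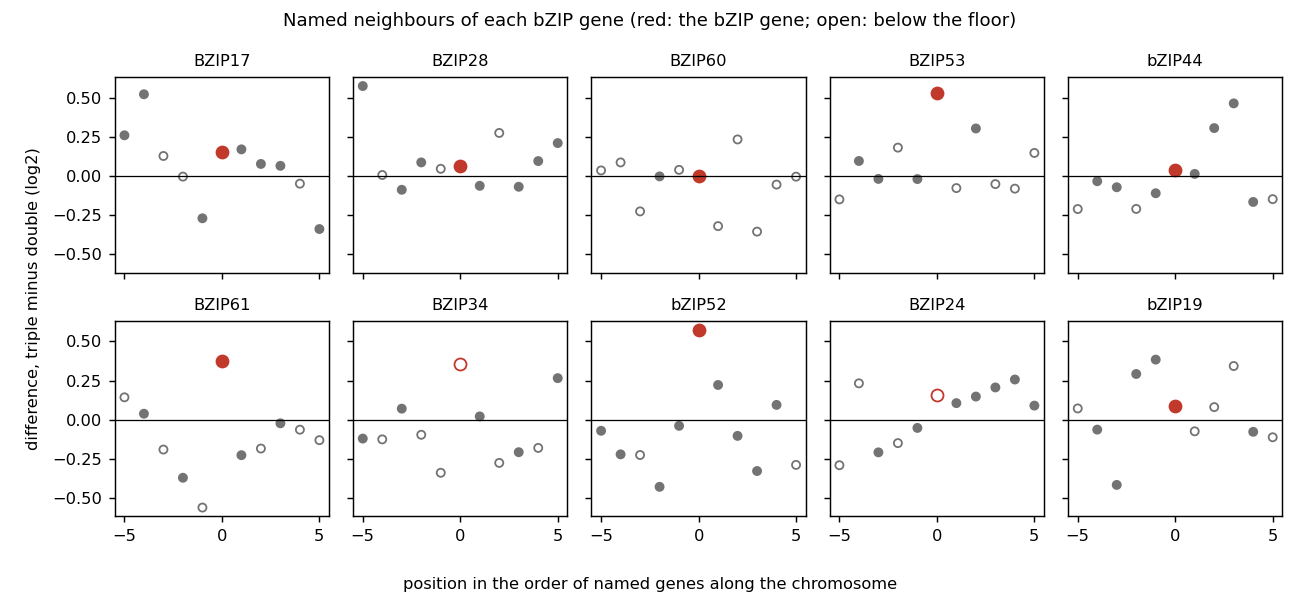
Differences (triple minus double expressor, log2) of each bZIP gene, at position 0 in red, and of the 5 nearest named loci on each side in gene order, in grey; open symbols lie below the floor. bZIP52, BZIP53, BZIP61 and BZIP34 stand above all 10 of their neighbours, and the other 6 genes lie among theirs. The genes above their neighbours are those with the largest differences, and all 10 genes were chosen on these values.

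The loci with values closest to those of bZIP52 on the 2 arrays, by Euclidean distance over both log2 values, were AT4G22840, sks16 and AT2G16750, with differences of 0.52, 0.59 and 0.56. For BZIP17 they were AT4G36420, AT1G44760 and AT1G68820, for BZIP28 AT3G48760, AT5G64420 and AT2G32600, and for BZIP60 AT4G10140, AT5G12110 and AT1G09900. This measure rests on 2 values per gene, which include how strongly each probe set binds.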

How the data were processed

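RNA of 7-day seedlings was hybridised to 2 arrays, 1 per genotype, and groups were taken from the sample titles. The deposited table gives a log2 value for 22810 probe sets on each array, which the authors obtained by RMA (per the submitters' processing notes, which give no version). The log2 scale was read from the range of the values, 2.39 to 14.33. RMA puts arrays on one distribution, which hides any shift common to most genes.

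Of the probe sets, 64 are controls and were left out. Names came from the platform annotation, which can be old, matched by gene identifier to a RefSeq table of TAIR10.1: 13513 probe sets have 1 gene (13436 matched), 503 several and 8730 none here. Of the members, all 10 matched. For the other lists the brightest probe set of a locus was used.

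Each difference is triple minus double expressor, with no model or test. The members, the gene lists and the chromosome stretch around bZIP52 were chosen with earlier results of these data known. Besides the members, the rule named the highest and lowest other bZIP gene, up to 3 genes per list by size of difference, and the 3 nearest loci; the group I relatives, S1P, and single genes of short lists were named after their values were seen. bZIP groups are textbook assignments. Alternatives were median centring, lowess centring (span 0.3), a damped scale with 32 added, other floors and folds, the mean of probe sets and leaving out cross-hybridising probe sets. The fold count was run on simulated data at 2-fold only. That run gives no error rate for the counts at 1.5-fold or at a log2 difference of 0.32. Python 3.11.15, numpy 2.4.6, pandas 2.3.3, statsmodels 0.14.6 and matplotlib 3.10.9 were used. Detection calls and batches were not used here.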

Additional observations from a re-analysis of the deposited data

How the results depend on the processing

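The alternative without bZIP52 and the restriction of the other bZIP genes to those above the floor were chosen after seeing the data. Of 50 recomputed differences of single members, 0 moved beyond the SD of probe sets at their level and 2 turned sign, those of BZIP60 under median centring (-0.033) and lowess centring (-0.018). The median of the 3 membrane-bound factors ranged from 0.033 to 0.067. The median of the other 7, 0.36, was 0.18 on the damped scale and 0.26 without bZIP52, and the gap of -0.29 was -0.12 and -0.19. Damping shrinks dim genes by construction. Over the 5 of these 7 genes above the floor the median was 0.38 and the gap -0.31. The median of the other bZIP genes, 0.14, was 0.059 on the damped scale, and above the floor 5 were higher and 1 lower in place of 11 and 4, among 6 genes in place of 15. The ER stress median, 0.031, was -0.0029 under median centring, and the energy median, -0.019, was 0.00027 over the 4 genes above the floor. No member was 1.5-fold apart, and 3 above the floor were at least 0.32 apart on the log2 scale. Over all probe sets the 1.5-fold counts, 213 higher and 76 lower, were 1146 and 666 at a log2 difference of 0.32, 28 and 8 at 2-fold, 88 and 20 on the damped scale, 106 and 29 with a floor at the 60th percentile, and 140 lower with no floor. Each of these counts keeps more or fewer probe sets by construction. Using the mean of all probe sets or leaving out cross-hybridising ones changed no member, since each has 1 unmarked probe set. The 50 recomputed differences include these alternatives, which could not have moved any member. No paired analysis was possible because there is a single array for each genotype, and leaving one out would remove that genotype.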
